A study of Mus musculus with 8 samples.

Results

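Ago-bound RNA (Ago–RNA) was compared with total RNA in epiblast-like aggregates (ELA), the state that mouse ES cells reach after 2 days in vitro (2 DIV) as floating aggregates in chemically defined medium with neither LIF nor serum. All 20375 gene names with at least 1 probe well above background on both ELA arrays were described, of 36163 names printed on the array, with no choice by the size of the ratio. The measure was the log2 ratio of the normalized Ago–RNA signal to the normalized total RNA signal, the Ago enrichment. ELA came from the ES line E14Tg2A of strain 129/Ola, which is not one of the reporter or Dicer lines of the study. The Ago–RNA was immunoprecipitated from the cytosolic fraction with an antibody that recognizes all Argonaute proteins, and the total RNA came from whole cells. The same pair of libraries existed for ES (0 DIV), NPC (6 DIV) and NPC/Neu (10 DIV), and their values are given below where ELA is set beside them. Each of the 8 arrays held a pool of 3 experiments, so that a condition had 1 array, no replicate spread could be measured and no test between conditions was made. Less Ago binding and retention of an RNA in the nucleus cannot be told apart in these ratios, since the fractions differ.

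Argonaute proteins carry a miRNA and hold mRNAs that pair with it, most often through bases 2 to 8 of the miRNA, the seed. TNRC6 proteins bind Argonaute and recruit the CCR4-NOT and PAN2-PAN3 deadenylases and the decapping enzymes, so that the bound mRNA is translated less and decays sooner. In mouse pluripotent cells the miR-290 cluster, and in the epiblast the miR-302 cluster, are abundant miRNAs, and most of their members share 1 seed. The levels of the miRNAs themselves were not measured here.

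On the total RNA array, naive pluripotency factors were lower and primed epiblast genes mostly higher than in ES, as the label implies, but neural progenitor markers were mostly higher too. Of 13 naive pluripotency factors, the genes of the ES state, 13 had a lower total RNA signal in ELA than in ES, with a median difference of -2.74 on the log2 scale. Of 13 primed epiblast genes, 12 were higher, with a median difference of 0.97. Fgf5, the ligand that defines the early epiblast, was at 11.97 in ES and 14.78 in ELA. Nodal was the exception, at 13.36 and 9.66. All 9 neural progenitor markers were also above background in ELA, where 8 were higher than in ES. Their median difference was 0.97, like that of the epiblast genes, and Fabp7 was at 6.96 in ES, 10.07 in ELA and 15.46 in NPC. Among 10 core pluripotency factors, 3 were higher in ELA than in ES, with a median difference of -0.54. Of 9 mesendoderm and 9 extraembryonic markers, 4 each were above background. The definitive endoderm gene Sox17, the mesoderm genes Mixl1 and Mesp1 and the trophectoderm genes Cdx2 and Elf5 were not. The mesendoderm markers Foxa2, Gata4 and Gsc were above background on both ELA arrays, with total RNA signals of 8.90, 7.66 and 7.33. Of the 9 mesendoderm markers, 7 had a higher total RNA signal in ELA than in ES, with a median difference of 0.26. Among the extraembryonic markers, the keratin genes Krt8 and Krt18 and the laminin gene Lama1 were well above background, with log2 signals of 12.59 to 16.19. Of the 9 extraembryonic markers, 1 had a higher total RNA signal in ELA than in ES, with a median difference of -0.41. Whether cells of these lineages were present or had a part in the ratios was not tested.

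Most genes had similar normalized signals in Ago–RNA and total RNA of ELA. The log2 ratio had a median of -0.03, quartiles of -0.29 and 0.27 and an SD across genes of 0.54, and 93.6% of genes lay within 2-fold. Ratios of 2-fold or more higher in Ago–RNA were seen for 785 genes (3.85%) and of 2-fold or more lower for 527 genes (2.59%). The 4-fold limits were passed by 70 genes (0.344%) and 93 genes (0.456%). Over the same genes, which were chosen by detection in ELA, the SD was 0.90 in ES, 0.70 in NPC and 0.97 in NPC/Neu, so that ELA had the narrowest spread of the 4 stages. The median spot-to-spot SD of the log2 ratio on these arrays was 0.22, from 264 probes printed several times, and it covers printing and hybridization error alone. Of 5022 genes with 2 or more detected probes, 398 had probes whose ratios were more than 2-fold apart. The split into higher and lower genes depended on the scaling. With Ago arrays and total RNA arrays quantile normalized separately it was 1674 against 409, and with processed signals scaled to the 75th percentile it was 945 against 1124.

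**Figure D1:**
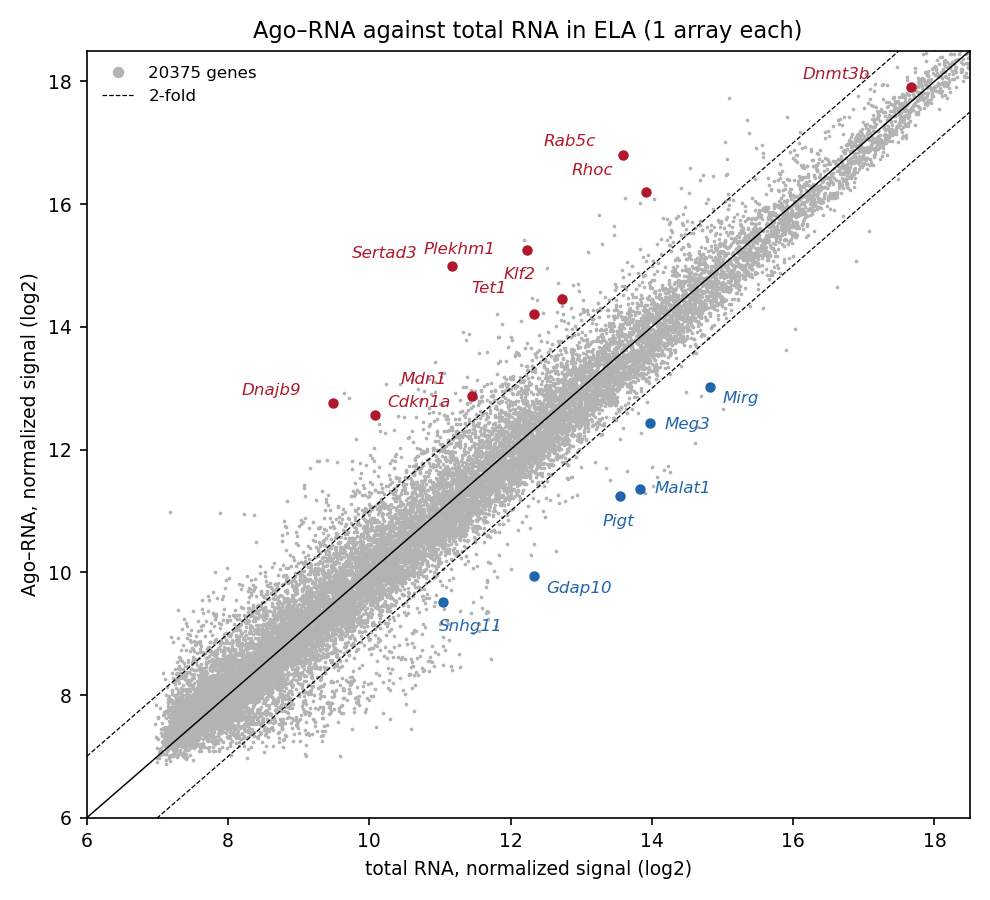
Normalized log2 signal of Ago–RNA (vertical axis) against total RNA (horizontal axis) for 20375 genes in ELA, 1 array each. The solid line marks equal signals and the dashed lines 2-fold. Named genes in red lie above the line and those in blue below it. Sertad3, Dnajb9 and Rab5c stand farthest above the band, and Malat1, Gdap10 and Pigt farthest below it among the named genes.

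The 10 highest ratios are given among genes with a RefSeq-style symbol, all probes above background and log2 signals of at least 8, and none of the 10 was on the pluripotency, epiblast or neural lists. Sertad3, a transcriptional co-regulator (chr7:28258787-28262378, build NCBI37), had a log2 signal of 14.99 in Ago–RNA and 11.17 in total RNA, a ratio of 3.82. Its ratio was 0.38 in ES and 3.73 in NPC. Dnajb9, a co-chaperone of the endoplasmic reticulum (chr12:45306884-45311055), was at 12.75 and 9.49, and its 2 probes gave ratios of 3.18 and 3.35. Rab5c, a GTPase of early endosomes (chr11:100576323-100599529), was at 16.81 and 13.59. All 3 genes lay more than 3 log2 units above total RNA in ELA. Their ratios were 0.38, 1.01 and 1.37 in ES and 3.73, 2.93 and 2.75 in NPC. The lysosomal adaptor gene Plekhm1 followed at 3.02, Tagap at 2.84, the G protein subunit gene Gnb5 at 2.72, Pafah1b3 at 2.64, the deubiquitinase gene Otub1 at 2.59, the tissue factor gene F3 at 2.55 and Snapc1, of the complex that transcribes small nuclear RNA genes, at 2.54. In NPC, Plekhm1 was at 2.86, Tagap at 2.38, Pafah1b3 at 1.99, Otub1 at 1.05 and F3 at 2.87, whereas Gnb5 was at 0.06 and Snapc1 at 0.69. Tagap has a close copy, Tagap1, with a ratio of 2.64 from 1 of its 2 probes, and their signals may not be independent. Of the 70 genes past 4-fold, 57 had a RefSeq-style symbol, beside 12658 of all 20375 genes. Of the 93 genes past 4-fold in the other direction, 4 had such a symbol, and the rest were mostly clone names and intergenic transcripts. Those 4 include Malat1 and NEAT2, which are names of the same RNA.

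Genes whose 3′ UTR holds a match to the miR-290/miR-302 seed had higher Ago enrichment in ELA than genes without one. The mature miRNAs, from RefSeq (build GRCm38.p6), are shown because their seed defines the match, with bases 2 to 8 in capitals.
miR-291a-3p: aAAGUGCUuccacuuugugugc
miR-294-3p: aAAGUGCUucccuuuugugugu
miR-295-3p: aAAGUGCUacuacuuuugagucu
miR-302b-3p: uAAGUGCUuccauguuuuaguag
miR-302d-3p: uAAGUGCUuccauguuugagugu
miR-17-5p: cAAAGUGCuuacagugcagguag
The first 5 share the seed AAGUGCU, and a 3′ UTR pairs with it through AGCACTT. The last stands for the miR-17 family, whose seed AAAGUGC is shifted by 1 base and pairs with GCACTTT, so that the letters GCACTT belong to both families. Each 3′ UTR, read in the sense direction, was put in the class of its best match: AGCACTTA (8 bases, with the A that Argonaute favours opposite base 1), AGCACTT (7 bases), GCACTTA (7 bases, with that A), GCACTT (6 bases) or no match. A transcript with a 3′ UTR of at least 50 bases was matched for 12922 genes, of which 4.98% were 2-fold or more higher in Ago–RNA and 0.658% 2-fold or more lower.

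The class with the longest match had the highest median and the class with none the lowest. The 399 genes with the 8-base match (3.09% of 3′ UTRs) had a median log2 ratio of 0.40, the 406 genes with GCACTTA 0.28, the 1633 genes with AGCACTT 0.22, the 1539 genes with GCACTT 0.17 and the 8945 genes with no match -0.06. The share of genes 2-fold or more higher was 18.8% with the 8-base match, 10.3% and 10.5% with the 7-base matches, 7.15% with the 6-base match and 2.74% with none. The share 4-fold or more higher was 3.51% with the 8-base match and 0.145% with none. The shares 2-fold or more lower showed no such order, at 0.501%, 0.246%, 0.796%, 0.52% and 0.682%. Read the other way, 61 genes with a 3′ UTR were 4-fold or more higher, and 48 of them (78.7%) held GCACTT, against 30.8% of all genes with a 3′ UTR. Genes with 1 match of 7 or 8 bases had a median of 0.23, genes with 2 such matches 0.37 and genes with 3 or more 0.46.

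**Figure D2:**
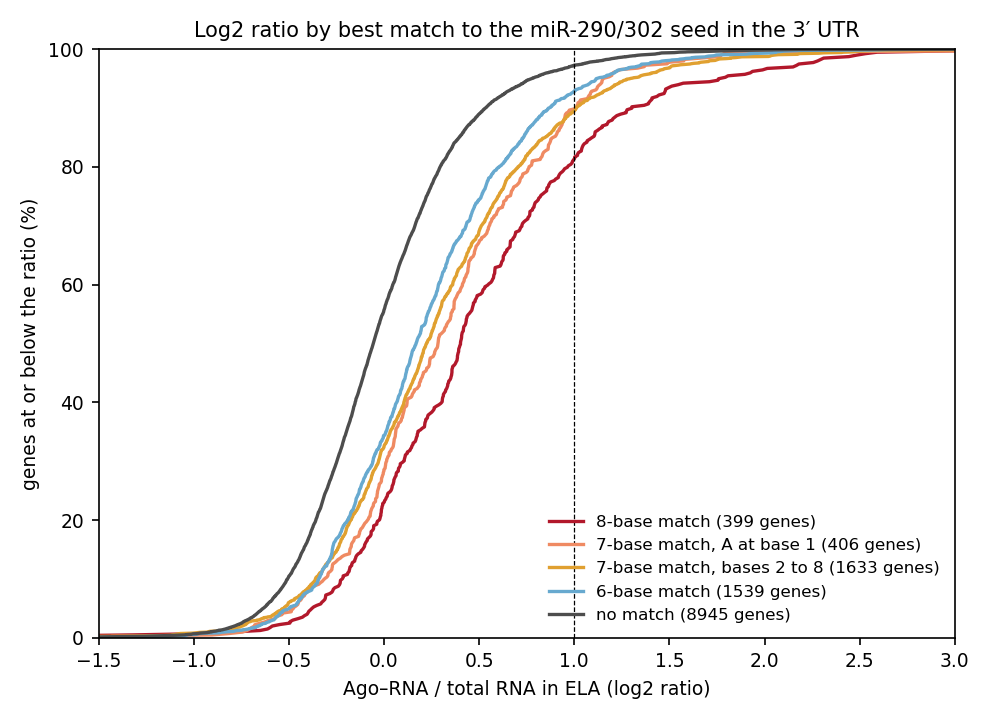
Cumulative share of genes (vertical axis, percent) at or below each log2 Ago enrichment in ELA (horizontal axis), with 1 curve for each class of best match to the miR-290/miR-302 seed in the 3′ UTR. The curve of the 399 genes with an 8-base match lies farthest to the right, with a median of 0.40, and that of the 8945 genes with no match farthest to the left, with a median of -0.06. The dashed line marks 2-fold.

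Longer 3′ UTRs hold more matches and longer transcripts had higher ratios, so the classes were also set side by side at like length. The median 3′ UTR was 2618 bases in the 8-base class and 707 bases in the class with no match. Among genes with a 3′ UTR of 423 to 1021 bases, the 45 genes with the 8-base match had a median of 0.72 and the 2637 genes with no match -0.07, and 42.2% against 2.84% were 2-fold or more higher. Among the longest 3′ UTRs, above 2027 bases, the medians were 0.41 (249 genes) and 0.12 (1226 genes). The shortest 3′ UTRs, up to 422 bases, had 13 genes with the 8-base match, with a median of 0.44 against -0.15. After a linear fit of the ratio on 3′ UTR length, coding length, GC content and total RNA signal, the mean of the 8-base class lay 0.33 above that of the class with no match, GCACTTA 0.21, AGCACTT 0.15 and GCACTT 0.12.

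The base after the match and its place in the transcript also went with the ratio. Genes holding AGCACTTT had a median of 0.37 (719 genes), close to the 0.40 of AGCACTTA, while AGCACTTC stood at 0.21 (361 genes) and AGCACTTG at 0.18 (821 genes). These groups overlap, and genes with 1 of the 4 forms alone had medians of 0.34 for AGCACTTT, 0.40 for AGCACTTA, 0.16 for AGCACTTC and 0.13 for AGCACTTG. Among genes with only the 6-base match, those holding GCACTTT, the match of the miR-17 family, had a median of 0.27 (749 genes) and the others 0.10 (790 genes). Among genes with AGCACTT and no 8-base match, those that also held GCACTTT had a median of 0.37 (827 genes) and the others 0.10 (806 genes), of which 15.6% and 5.21% were 2-fold or more higher. Without GCACTTT, the classes of AGCACTT and of GCACTT had medians of 0.10 each. In genes with no match in the 3′ UTR, a 7-base match in the coding sequence went with a median of 0.18 (1207 genes), against -0.09 (7738 genes) without one. In 4 groups of these genes by coding length, the difference of the medians was 0.33, 0.25, 0.13 and 0.16 from the shortest to the longest. The reverse complements AAGTGCT or TAAGTGC in the 3′ UTR went with 0.04 (1113 genes) against -0.07 (7832 genes), with 2.79% and 2.73% of genes 2-fold or more higher.

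Words holding GCACTT were also compared with all other words of 7 bases. Of 16130 words present in the 3′ UTRs of at least 50 genes, ranked by the mean difference in ratio after the same fit, GCACTTA was first (0.24, 946 genes) and GCACTTT the second (0.23, 1738 genes), and AGCACTT was at rank 14 (0.16, 2032 genes). The words at ranks 3 to 13 each held the letters CG and were present in 68 to 208 genes. Among the 1391 of these words that pair with the seed of a RefSeq mouse miRNA, the miR-17 and miR-290/miR-302 matches were at ranks 1 and 2. The matches of miR-25 and miR-92 (GTGCAAT), miR-130 (TTGCACT) and miR-19 (TTTGCAC) were at ranks 4, 5 and 7, with mean differences of 0.15, 0.13 and 0.13. In genes without GCACTT, the medians of the genes holding these 3 words were still 0.19, 0.13 and 0.16. The let-7 match CTACCTC, whose miRNAs are made late in differentiation, was at rank 1257 with a mean difference of -0.02, the miR-125 match CTCAGGG at 1091 with -0.01 and the miR-9 match ACCAAAG at 737 with 0.01.

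In ELA the class with the 8-base match had the highest median and the 6-base class the lowest of the 4, whereas the 6-base class stood at 0.41 in ES, 0.29 in NPC and 0.41 in NPC/Neu, near or above the 8-base class. The medians of the 8-base class and of the class with no match were 0.40 and -0.06 in ELA, 0.43 and 0.08 in ES, 0.25 and 0.05 in NPC and 0.34 and 0.14 in NPC/Neu. With each stage fitted on lengths, GC content and signal, the 8-base class lay above the class with no match by 0.33 in ELA, 0.05 in ES and 0.10 in NPC, and in NPC/Neu the difference was -0.02. The genes were those above background in ELA, some of them near background elsewhere, and with 1 array a side these differences between stages could not be tested.

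**Figure D3:**
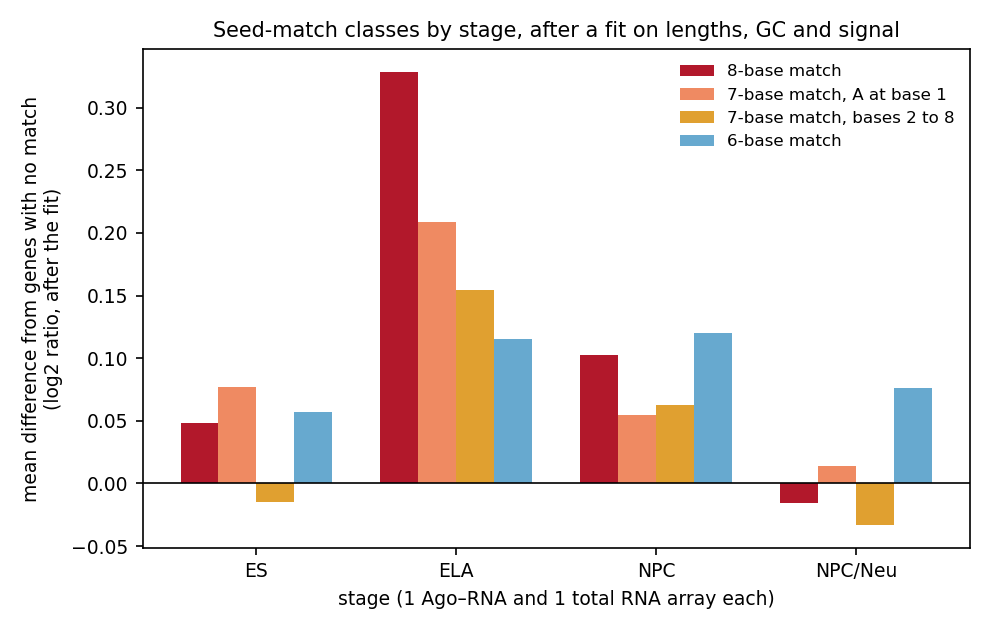
Mean difference in log2 Ago enrichment from genes with no match (vertical axis), for 4 classes of match to the miR-290/miR-302 seed at each stage (horizontal axis), after a linear fit within the stage. Bars are means over the genes above background in ELA that could be fitted at the stage and carry no error, since each stage had 1 array a side. In ELA the bars are at 0.33 for the 8-base match, 0.21 for GCACTTA, 0.15 for AGCACTT and 0.12 for GCACTT. The 8-base bar is at 0.05 in ES, 0.10 in NPC and -0.02 in NPC/Neu.

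Genes reported elsewhere as targets of miR-290/miR-302 stood high in ELA. Of 19 on the array, 18 were above background and 8 of them (44.4%, against 4.98% of genes with a 3′ UTR) were 2-fold or more higher in Ago–RNA, with none 2-fold or more lower, and the median of 0.81 compares with -0.03 for all genes. The same genes had medians of 0.39 in ES, 0.34 in NPC and 0.40 in NPC/Neu. Of 2438 genes with a match of 7 or 8 bases, 288 were 2-fold or more higher in ELA. All 18 reported targets held GCACTT in the 3′ UTR, so that the list is not independent of the classes above. A match in the 3′ UTR is printed (build NCBI37, match in capitals) for 6 of these genes with a high ratio, for Plekhm1 and Otub1 of the highest ratios above and, last, for Lats2 and Lefty2, which hold the 8-base match without a ratio past 2-fold. The genes were picked after their values were seen. Of the 10 highest ratios, Sertad3, the highest, and Snapc1 had no match in the 3′ UTR, and Tagap had the 6-base match alone. For Pafah1b3 no 3′ UTR was matched, so that it has no class.
Cdkn1a: accgtgggtgtcaaAGCACTTAgtgggt
Rhoc: ccatattacacaccAGCACTTtatatat
Tob2: actatagggaggttAGCACTTtttctaa
Rbl2: gtatttttcaataaAGCACTTAtaaatt
Casp2: tgatataacctagaAGCACTTgtctctg
Lefty1: tgcactgtatgcgaAGCACTTAcatgta
Plekhm1: tctggctaccccagAGCACTTAgagcca
Otub1: agccacccatacaaAGCACTTAcagact
Lats2: tacagtatggaaagAGCACTTAttttgt
Lefty2: catcacccagtttaAGCACTTAcatggg
They lie at chr17:29237431-29237458, chr3:104597235-104597262, chr15:81680560-81680587, chr8:93647715-93647742, chr6:42231543-42231570, chr1:182868330-182868357, chr11:103227042-103227069, chr19:7273054-7273081, chr14:58309917-58309944 and chr1:182828034-182828061 in that order, each within an exon of the 3′ UTR. Tob2, Plekhm1, Otub1 and Lats2 are on the minus strand and the others on the plus strand.

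Cdkn1a, the cyclin-dependent kinase inhibitor p21, was at 12.56 in Ago–RNA and 10.08 in total RNA, a ratio of 2.48 from 2 probes at 2.02 and 2.95. With its undetected probe included the ratio was 1.37. Its ratios were 0.86 in ES, 0.93 in NPC and -0.39 in NPC/Neu. The GTPase gene Rhoc, at 16.21 and 13.92, had a ratio of 2.29, against 0.32 in ES and 2.61 in NPC. Tob2, an antiproliferative gene that binds the CCR4-NOT complex, was at 2.03. Its relative Tob1, no member of the list and looked up after its value was seen, was at 2.13 with no match in its 3′ UTR. Rbl2, a pocket protein of the retinoblastoma family, was at 1.40 on 1 probe, with a total RNA signal of 7.33, near background. Its ratio ran from 1.00 to 2.29 over the alternative settings. Bmpr2, the type II BMP receptor, was at 1.33. The caspase gene Casp2 had 1.23 in ELA and -0.05 in ES, -0.21 in NPC and -0.46 in NPC/Neu, so that it was past 2-fold in ELA and not at the other 3 stages. Lefty1, a secreted inhibitor of Nodal, was at 1.11, but below 2-fold at 0.97 with quantile normalization over the 2 ELA arrays alone and at 0.83 with arrays centred on the median. The apoptosis gene Ei24 was at 1.02. Tgfbr2, the type II TGF-beta receptor, was at 1.00, its probes at 0.87 and 1.12.

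The remaining reported targets were lower but mostly above the median of all genes. Arid4b was at 0.62, the cyclin gene Ccnd1 at 0.56, Akt1 at 0.55, Nfib at 0.41, the methyl-CpG binding gene Mbd2 at 0.40 and the Hippo kinase gene Lats2 at 0.37. Dazap2 was at 0.10, within the spot error of 0. Lefty2, also an inhibitor of Nodal, was at -0.23 despite its 8-base match, and Rab11fip5 at -0.25. Lefty1 and Lefty2 differed by more than the spot error although both hold an 8-base match, and each rested on 1 probe.

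mRNAs of the silencing machinery itself mostly had ratios above the median of all genes. Of 22 genes for Argonautes and effectors, all above background, 3 were 2-fold or more higher, against 3.85% of all genes. None was 2-fold or more lower, against 2.59% of all genes and 0.658% of genes with a 3′ UTR. The median of the list was 0.48 and 19 of its genes lay above the median of all genes. Dcp2, the catalytic decapping enzyme, was at 11.30 in Ago–RNA and 10.00 in total RNA, a ratio of 1.31, Tnrc6b, a TNRC6 scaffold, at 1.18 and the deadenylase gene Cnot6l at 1.04. Of the Argonaute genes, Eif2c3 (Ago3) was at 0.99, Eif2c1 (Ago1) at 0.73 and Eif2c4 (Ago4) at 0.55. Eif2c3 and Eif2c4 were near background in total RNA, at 7.31 and 7.56, where the lowest signal well above background was 6.96. The ratio of Eif2c3 ran from 0.62 to 1.86 over the alternative settings. Eif2c2 (Ago2) was at 0.35 as the mean of probes at -0.62 and 1.32, so that its ratio is not settled. The other TNRC6 genes, Tnrc6c and Tnrc6a, were at 0.89 and 0.58, the helicase gene Mov10 at 0.87, the CCR4-NOT scaffold gene Cnot1 at 0.76 and Trim71, a stem cell repressor, at 0.71. Cnot6 was at 0.41, the decapping scaffold Edc4 at 0.38, Ddx6 at 0.22, Cnot7 at 0.22, Pan3 at 0.14, Dcp1a at 0.14, Cnot8 at 0.05, Cnot2 at -0.08, Pan2 at -0.13 and Cnot3 at -0.13. In ES the median of the list was 0.86, in NPC 0.66 and in NPC/Neu 0.93.

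The miRNA biogenesis genes gave a median of 0.19, with 1 of 11 past 2-fold, against 3.85% of all genes 2-fold or more higher. The gene past 2-fold was Lin28b, which blocks let-7 processing and is itself a let-7 target, at 13.59 and 12.08, a ratio of 1.51. Dicer1 was at 0.76, Lin28a at 0.75 and Drosha at 0.43, while Dgcr8, the partner of Drosha, was at -0.01. Ddx5 was at 0.31, Tarbp2 at 0.19, Adar at 0.13, the export receptor gene Xpo5 at 0.09, Ddx17 at -0.19 and Prkra at -0.37. Of 20 reported let-7 targets, 6 were 2-fold or more higher with none lower, and the median was 0.40. The shares higher and lower were 3.85% and 2.59% of all genes, and 4.98% and 0.658% of genes with a 3′ UTR. The highest was Lin28b and the lowest Igf2bp2, at -0.21. Each of the 6, Lin28b, Mycn (1.48), Plagl2 (1.39), Hmga2 (1.35), Nr6a1 (1.13) and E2f5 (1.00), held GCACTT in its 3′ UTR, as did 3 of the other 12 with a matched 3′ UTR (Igf2bp1, Igf2bp3 and Ccnd1). Mycn had no let-7 match in its matched 3′ UTR. These let-7 targets were singled out after their values were seen.

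Pluripotency and epiblast regulators mostly lay within 2-fold, with list medians from -0.12 to 0.24 against -0.03 for all genes. Of 10 core factors, 0 passed 2-fold, against 3.85% of all genes 2-fold or more higher, and the median was 0.17. Lin28a, an RNA-binding repressor, was at 0.75, the transcription factor genes Pou5f1 at 0.71 and Sox2 at 0.38, Utf1 at 0.50, Sall4 at 0.37, Foxd3 at -0.04, Dppa2 at -0.21 and Dppa4 at -0.59. Tdgf1, the Nodal co-receptor, was at -0.07 from 3 probes spread between -1.13 and 0.66. The 12 naive factors above background had a median of -0.12, and of these Klf2 passed 2-fold, at 14.45 in Ago–RNA and 12.72 in total RNA, a ratio of 1.72 that also stood at 1.03 in ES and 2.12 in NPC. Klf4 was at 0.02, Fgf4 at -0.02, Esrrb at -0.22, Nr0b1 at -0.23, Nanog at -0.34, Zfp42 at -0.48 and Dppa3, the lowest, at -0.55. The 13 primed epiblast genes had a median of 0.24 with 0 past 2-fold, from Sox4 at 0.90, Fgf5 at 0.66, Dnmt3a at 0.52 and Eomes at 0.51 through Pou3f1 at 0.30, Zic2 at 0.25, Dnmt3b at 0.24 and Fst at 0.16 to Lef1 at -0.08, Cdh2 at -0.09, Otx2 at -0.15, Sox3 at -0.24 and Nodal at -0.27. Fgf5 had -0.45 in ES, where it was less abundant.

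The counts past 2-fold in the lists of chromatin regulators below compare with 3.85% of all genes 2-fold or more higher. Among regulators of DNA methylation, 3 of 13 genes were 2-fold or more higher in Ago–RNA. Tet1, which oxidizes methylated cytosine, was at 14.21 and 12.33, a ratio of 1.88 with its 3 probes between 1.67 and 2.17. Mbd1 was at 1.34 and Dnmt1, the maintenance methyltransferase, at 1.16. Tet2 was at 0.60, Dnmt3a at 0.52, Mbd2 at 0.40, Uhrf1, the partner of Dnmt1, at 0.28, Dnmt3b at 0.24, Mbd3 at 0.00, Tet3 at -0.03, Mbd4 at -0.16 and Dnmt3l, the cofactor of the de novo enzymes, at -0.17. Histone lysine demethylases had a median of 0.35 with 1 of 18 (5.56%, near the 3.85% of all genes) past 2-fold, Jhdm1d, at 1.42. Kdm2b was at 0.36. Kdm5b, at -0.62, was the lowest, but its 4 probes ran from -1.77 to 0.56, and with its brightest probe alone it was at 0.56. Of 38 SWI/SNF and CHD remodelers, 6 were 2-fold or more higher (median 0.28), led by Bcl7a at 1.90, and the lowest was Brd7 at -0.74. The ATPase genes Chd4 and Smarca4 were at 0.64 and 0.38 and the subunit gene Smarcd1 at 0.08. The ES medians of these 3 lists were 0.99, 1.34 and 1.07. The Polycomb list, histone methylation by PRC2 and ubiquitination by PRC1, had a median of 0.16, with 2 of 29 past 2-fold, Pcgf2 at 1.15 and Cbx6 at 1.11, and the lowest was Pcgf1 at -0.36. Histone deacetylases had a median of -0.03 with 0 of 11 past 2-fold.

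Signalling genes were counted by pathway, against 3.85% of all genes 2-fold or more higher. Of 25 TGF-beta, Nodal and BMP pathway genes, 2 were 2-fold or more higher, Bmpr2 and Lefty1, with a median of 0.36 and 19 genes above the median of all genes, and the lowest was the ligand gene Bmp7 at -0.56. Of 20 FGF and ERK pathway genes, 2 were 2-fold or more higher, the exchange factor gene Sos1 at 1.30 and the inhibitor gene Spry4 at 1.08. Sos1 rested on 1 probe with a total RNA signal of 7.57, and its ratio ran from 0.93 to 1.97 over the alternative settings. The lowest of the pathway was Fgfr4 at -0.79. Immediate early genes had a median of 0.23, with 3 of 18 past 2-fold. Btg2, an antiproliferative gene, was at 1.93 and the AU-rich element binding gene Zfp36 at 1.89, and the lowest was Egr1 at -0.59. Btg2 was at 0.30 in ES, 2.76 in NPC and 1.49 in NPC/Neu, and Zfp36 at 0.62, 1.18 and 1.42. Jund, a subunit of AP-1, was the third, at 1.13. Spry4, Zfp36 and Jund were singled out after their values were seen.

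Long transcripts had higher ratios. Over the 12922 genes the Spearman correlation of the ratio with transcript length was 0.39, with coding length and 3′ UTR length both 0.28, with GC content -0.13 and with total RNA signal -0.21. These correlations are across genes of 1 pair of arrays, which are not independent replicates. In 5 groups of equal size by length, the median ratio was higher in each step, from -0.19 for transcripts up to 1668 bases to 0.34 for those above 4846 bases, and the share 2-fold or more higher was 3.17% in the first and 9.83% in the last. Within each of the 5 groups, genes with a match of 7 or 8 bases had the higher median, by 0.29 in the shortest and 0.12 in the longest. The correlation with length was 0.61 in ES, 0.37 in NPC and 0.50 in NPC/Neu.

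**Figure D4:**
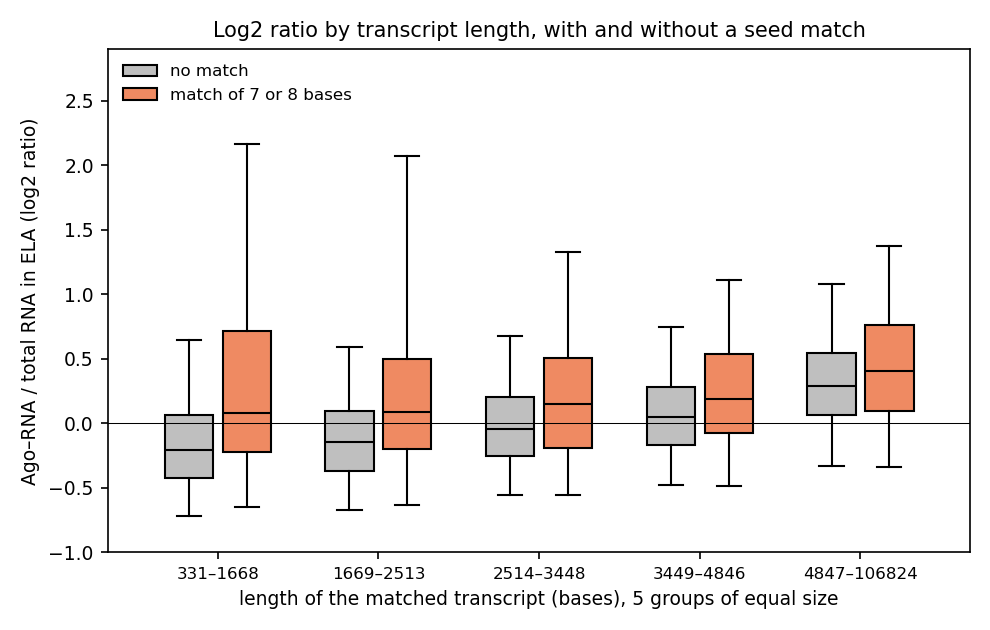
Log2 Ago enrichment in ELA (vertical axis) for genes in 5 groups of equal size by length of the matched transcript in bases (horizontal axis), split by a match of 7 or 8 bases to the miR-290/miR-302 seed in the 3′ UTR. Boxes span the quartiles with the median as a line, and whiskers run from the 5th to the 95th percentile. In every group the box with a match has the higher median, and medians without a match run from -0.21 to 0.29.

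Lists with long transcripts and lists with short transcripts lay on opposite sides of the median of all genes. Their counts past 2-fold compare with 3.85% of all genes 2-fold or more higher and 2.59% 2-fold or more lower. Among genes with a 3′ UTR these shares were 4.98% and 0.658%. Large ubiquitin ligases and scaffold proteins, with a median transcript of 15243 bases, had a median ratio of 0.97, and 11 of 27 were 2-fold or more higher. Mdn1, an AAA ATPase of ribosome assembly, was highest at 1.42 with probes at 0.70 and 2.14, and Herc2 lowest at -0.55. Cytosolic ribosomal protein genes, with a median of 985 bases, had a median ratio of -0.20 and 0 of 84 past 2-fold in either direction, from Rpl21 at -0.63 to Rps27 at 0.67. Mitochondrial ribosomal proteins had a median of -0.27 with 4 of 74 (5.41%, near the 3.85% of all genes) past 2-fold, Mrps22 at 1.30 followed by Mrps18b, Mrpl37 and Mrpl30, and the lowest was Mrpl54 at -0.74. Nuclear encoded subunits of oxidative phosphorylation had a median of -0.23 and 1 of 77 past 2-fold, the complex I gene Ndufa5, at 17.01 and 15.04, a ratio of 1.97 against -0.98 in ES, 2.39 in NPC and 0.95 in NPC/Neu. Ndufb11, at -0.66, was the lowest. Among 44 histone cluster genes the median was -0.15, and 2 were 2-fold or more higher, a share near the 3.85% of all genes. They were Hist1h3i at 2.42 and Hist1h2be at 1.41, and the lowest of the list was Hist3h2a at -0.97. The histone cluster genes are near-identical copies, whose signals may not be independent. Zinc finger genes named Zfp had a median of 0.20, with 29 of 325 (8.92%) 2-fold or more higher and 4 lower (Zfp523, Zfp157, Zfp719 and Zfp740), from Zfp523 at -1.67 to Zfp768 at 2.44. Nucleoporins and transport receptors had a median of 0.29 with 4 of 46 higher, Ipo7 at 1.51, Nup35, Nup88 and Nupl1. The lowest, Xpo7, averaged -1.32 from probes at -2.70 and 0.07. Members of these lists other than the highest and the lowest were named after their values were seen.

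**Figure D5:**
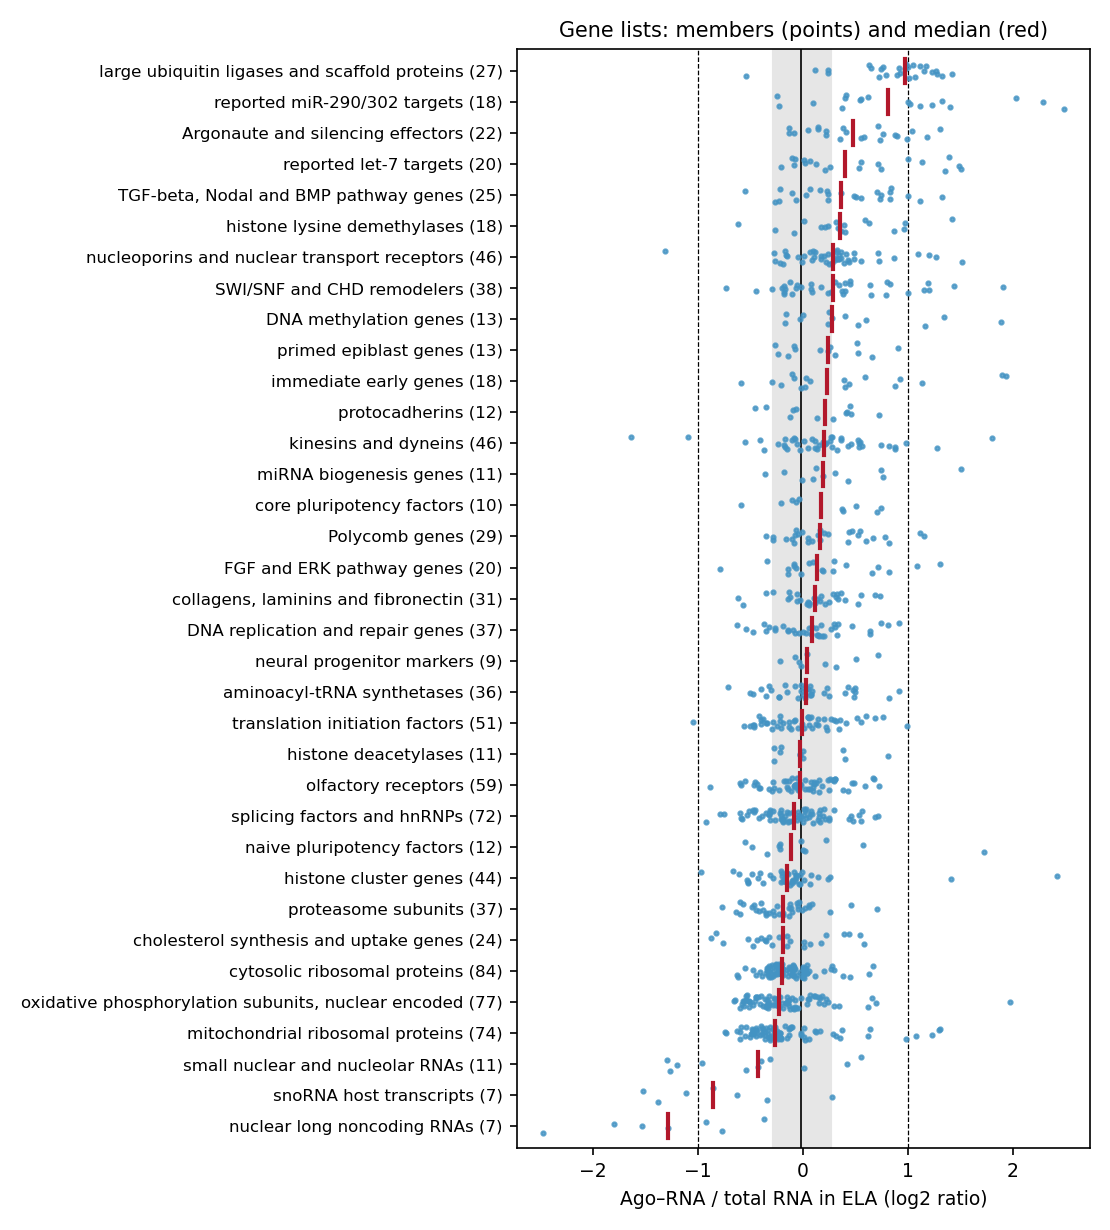
Log2 Ago enrichment in ELA (horizontal axis) for the detected members of gene lists with 7 to 84 members (vertical axis, number in brackets). Points are genes, red marks are list medians, the black line and grey band are the median and quartiles of all 20375 genes, and dashed lines mark 2-fold. Large ubiquitin ligases and reported miR-290/miR-302 targets lie at the top, at 0.97 and 0.81, and nuclear long noncoding RNAs at the bottom, at -1.29.

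RNAs known to stay in the nucleus had the lowest median of the lists. The counts below compare with 2.59% of all genes 2-fold or more lower in Ago–RNA. Of 7 nuclear long noncoding RNAs above background, 4 were 2-fold or more lower in Ago–RNA, and the median was -1.29. Malat1, an RNA of nuclear speckles, was at 11.36 in Ago–RNA and 13.84 in total RNA, a ratio of -2.47, and 3 probes under its other name NEAT2 averaged -2.62. The miRNA host transcript Mirg was at -1.80 and its imprinted neighbour Meg3 at -1.53, both from probes that spanned about 1 unit (-2.43 to -1.17 and -1.98 to -1.19). Kcnq1ot1 and Airn, antisense RNAs that silence imprinted genes, were at -1.29 and -0.93, the paraspeckle RNA Neat1 at -0.77 and Nespas at -0.37. Of 7 host transcripts of snoRNAs, 3 were 2-fold or more lower (Snhg11, Gas5 and Snhg7), the median was -0.86 and the range ran from Snhg11 at -1.53 to Snhg3 at 0.27. Small nuclear and nucleolar RNAs had a median of -0.43, with 3 of 11 past 2-fold (Snora74a, Rmrp and Rnu3b1), Snora74a lowest at -1.30 and the telomerase RNA Terc highest at 0.55. Each of these 3 lists had a lower median in ES, at -1.76, -2.53 and -2.82.

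Further genes had low values. Gdap10, a lincRNA in the annotation, was at -2.40. Pigt, which codes for a subunit of the GPI transamidase, was at 11.24 in Ago–RNA and 13.54 in total RNA, a ratio of -2.31, on 1 probe. Its ratios were -0.02 in ES, -0.48 in NPC and 2.52 in NPC/Neu. Kifc1, a minus-end directed kinesin of the spindle, was at -1.64 in ELA and -0.97 in NPC but at 1.85 in ES and 1.24 in NPC/Neu, also on 1 probe. Chrna2 was at -1.57, Klra1 at -1.55 and Rufy3 at -1.54.

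Some genes were measured on 1 side alone. With all probes well above background in Ago–RNA and no probe so in total RNA there were 756 genes, and 971 genes the other way. Against the lowest signal well above background on the other array (log2 6.96 on total RNA and 6.88 on Ago–RNA), 80 and 129 of them differed by at least 2-fold. The highest bounds in Ago–RNA were those of the olfactory receptor genes Olfr1408 and Olfr1000 (at least 7.31-fold and 4.32-fold higher), Zfp709 (3.57-fold), Lrfn2 (3.35-fold) and Ccr2 (2.91-fold). In total RNA they were those of Syt10, a synaptotagmin, at least 37.8-fold, Dhrs9 (3.38-fold), Olfr792 (3.25-fold), Alpk1 (3.13-fold) and Defb19 (2.95-fold). The signals of the genes named here on their detected side ran from 8.47 for Defb19 to 12.12 for Syt10 on the log2 scale.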

How the data were processed

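Per the labels and the methods, each array was a 1-colour Agilent mouse 8x60K array of a Cy3-labelled pool of 3 experiments. The deposited files hold the scanner's mean and background intensity and processed signal intensity for each spot, unnormalized, from Feature Extraction (10.7.3.1 per the file headers, 9.1 per the submitters' processing notes). The authors background-corrected and quantile normalized with limma, and this was followed here: normexp on mean and median background signals with an offset of 50 (limma 3.58.1, R 4.3.3), quantile normalization over 8 arrays, log2, spots averaged by probe, then probes well above background on both ELA arrays averaged by gene. Quantile normalization removes any difference in overall recovery. No non-control spot was saturated. Array number, 1 a condition, limits the precision.

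Of the 55681 probe sequences, 27533 matched a coding transcript of GENCODE vM1 (NCBI37, the build of the array), 564 of them in more than 1 gene. For each gene the longest transcript that holds a detected probe of that gene alone was used. RefSeq mature miRNAs and gene names were matched by name.

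The members and the 39 lists were chosen with earlier results of these data known. No test was run. Named genes were the 10 highest and 10 lowest ratios among genes with a RefSeq-style symbol, all probes detected and log2 signals of at least 8, each list's highest and lowest member, the members of 7 lists, 17 genes the study discusses and the 5 highest bounds on each side. A few of these genes are not reported here. Scripts were tested on simulated data with known changes.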

Additional observations from a re-analysis of the deposited data

Results flagged for a closer look

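Pigt had a log2 ratio of -2.31 in ELA and 2.52 in NPC/Neu, and Kifc1 had -1.64 in ELA against 1.85 in ES and 1.24 in NPC/Neu. Both drew attention because the ratio pointed in opposite directions at different stages, past 2-fold on each side. The differences were not tested, since each stage had 1 array a side, and each gene rested on 1 probe.

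Olfr1408 was well above background in Ago–RNA and not in total RNA of ELA, with a difference of at least 2.87 on the log2 scale. Syt10 was well above background in total RNA and not in Ago–RNA, with a difference of at least 5.24. They were picked out because such genes have no ratio and stand outside the comparisons above.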

How the results depend on the processing

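No paired analysis was possible because each condition had 1 array, and for the same reason no replicate could be left out. Leaving out saturated spots changed nothing, since none was saturated. Over the main and alternative settings the median ratio of all genes ran from -0.16 to 0.18, the correlation with length ran from 0.32 to 0.41, and the difference between the 8-base class and genes with no match from 0.44 to 0.55. The use of the shortest transcript and of genes whose probes agree within 2-fold was chosen after seeing the data. Counts of genes 2-fold or more higher and lower, 785 and 527, became 1674 and 409 with separate quantile normalization of Ago and total RNA arrays, 1238 and 810 with quantile normalized processed signals, 945 and 1124 with processed signals scaled to the 75th percentile, and 681 and 348 with log2 signals of at least 8. The 4-fold counts, 70 and 93, became 135 and 55 with separate normalization, 133 and 208 with quantile normalized processed signals and 99 and 270 with scaled processed signals, and with an offset of 0 the lower count became 144.

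List medians are given relative to the median of all genes. Under separate normalization the cytosolic ribosomal proteins were at -0.47, mesendoderm markers at 0.17 and extraembryonic markers at 0.25. Nuclear long noncoding RNAs were at -1.51 under both settings with processed signals, -1.56 with log2 signals of at least 8 and -0.77 with undetected probes included, where snoRNA hosts were at -0.49, reported miR-290/miR-302 targets at 0.55 and protocadherins at 0.0074. Protocadherins were at 0.46 with log2 signals of at least 8. With the brightest probe snoRNA hosts were at -0.60 and Xpo7 reversed to 0.0734, and Kdm5b, at -0.62, changed sign to 0.56. In all, 406 of 418 list medians moved by less than the spot SD of 0.22, as did 1689 of 1919 values of single genes. The causes of these moves were not tested. Genes near background, seen on 1 side alone, limit what the arrays can show.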

Other observations

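Other gene groups were also described in ELA, beside a median of -0.03 for all genes. Of all genes, 3.85% were 2-fold or more higher and 2.59% 2-fold or more lower. Among genes with a 3′ UTR these shares were 4.98% and 0.658%. Kinesins and dyneins, motors of microtubules, had a median log2 ratio of 0.20, with 2 of 46 genes 2-fold or more higher, Kif5b at 1.80 and Dync1h1 at 1.28, and 2 lower, Kifc1 at -1.64 and Kifc2 at -1.10. Translation initiation factors had a median of -0.01, from Eif3i at -1.05 to Eif2b2 at 0.99. Of the lists with no gene past 2-fold, proteasome subunits were at -0.19 (Psmc6 at -0.78, Psmc1 at 0.70), genes of cholesterol synthesis and uptake at -0.20 (Ebp at -0.88, Mvd at 0.58), splicing factors and hnRNPs at -0.09 (Hnrnpa2b1 at -0.93, Sf3b1 at 0.71), aminoacyl-tRNA synthetases at 0.03 (Tars2 at -0.72, Mars at 0.92) and genes of DNA replication and repair at 0.09 (Atm highest at 0.92). Collagens, laminins and fibronectin were at 0.11 (Col7a1 at -0.62, Hspg2 at 0.73), protocadherins at 0.21 (Pcdhb12 at -0.46, Pcdh17 at 0.72), neural progenitor markers at 0.03 (Fabp7 at -0.22, Dll1 at 0.71), mesendoderm markers at 0.39 (Gata4 at 0.13, Gsc at 0.41) and extraembryonic markers at -0.03 (Krt18 at -0.55, Dab2 at 0.63). Of 1076 olfactory receptors on the array, 59 were above background, with a median of -0.03 (Olfr1443 at -0.89, Olfr187 at 0.72). No gene of the list of mitochondrially encoded genes was matched by name on the array.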
